A study of Mus musculus with 2 samples.

Results

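The genes of the NF-kappaB subunits and of their main inhibitors were examined in granulocytes and monocytes of mouse bone marrow. The set comprised 10 genes: the subunit genes Nfkb1, Nfkb2, Rel, Rela and Relb, and the inhibitor genes Nfkbia, Nfkbib, Nfkbie, Nfkbiz and Tnfaip3. Its probes were all non-control probes that carried one of these names in the scanner files, which gave 14 of 41174 gene probes, on 32 spots of each array. Granulocytes and monocytes both came, by sorting, from the marrow of male C57BL/6 mice of wild type genotype, and 0.5 µg of RNA from each was amplified and labelled with Cy3 on 1 array per cell type. The sources used here do not give the sort markers, the age or number of mice, or any pooling. A single array stands for each cell type, so the spread between samples is unknown, no test was made and genes were counted by size of difference. In such bulk samples, fewer cells of a type and less RNA per cell cannot be told apart.

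NF-kappaB is a family of transcription factors that bind DNA as dimers of Rel-homology subunits. Rela, Rel and Relb carry a transactivation domain, whereas Nfkb1 and Nfkb2 encode long precursors, p105 and p100, that are processed to the DNA-binding subunits p50 and p52. In resting cells the classical inhibitors IkB alpha, beta and epsilon (Nfkbia, Nfkbib and Nfkbie) hold dimers in the cytoplasm, and their phosphorylation by the IkB kinase complex leads to their degradation and to release of the dimers. IkB zeta (Nfkbiz) is instead a nuclear protein that binds p50 and shapes which genes respond, and A20 (Tnfaip3) is a ubiquitin-editing enzyme that shuts signalling down above the kinase complex. Several of these inhibitors are themselves NF-kappaB targets, which makes them feedback regulators, and in neutrophils and monocytes the pathway drives cytokine, chemokine and survival genes.

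The start regions of the members are shown because several of them are textbook kappaB-driven genes and one of these, Tnfaip3, differed by over 4-fold between the arrays while the others differed by less. In the RefSeq promoter table of GRCm38.p6, 7 of the 10 members had a window, and Nfkb1, Relb and Nfkbiz are named only. The kappaB consensus was searched on both strands in the 250 bases before each transcript start, and overlapping matches were all kept. It was found in 7 of the 10 member windows, those of 5 genes (Tnfaip3, Nfkbia, Nfkbie, Nfkb2 and Rel), beside 3.9% of all 32851 windows of this length, and not for Rela or Nfkbib. The last 130 bases before the start are printed 5′ to 3′, with the matches in capitals. The window of Tnfaip3 is that of its upstream start, and that of Nfkb2 is the first of its 3. The other Tnfaip3 window, of a start at 19011963, held 0 matches. All 3 windows of Nfkb2 held a match, so the 7 windows stand for only the 5 genes named.
Tnfaip3, chr10:19015411-19015540, minus strand: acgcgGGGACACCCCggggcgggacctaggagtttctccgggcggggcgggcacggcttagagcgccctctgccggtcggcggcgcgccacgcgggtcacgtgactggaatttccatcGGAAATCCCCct
Nfkbia, chr12:55492648-55492777, minus strand: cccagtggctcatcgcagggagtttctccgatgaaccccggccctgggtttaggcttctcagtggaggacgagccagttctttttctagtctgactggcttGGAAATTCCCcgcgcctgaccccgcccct
Nfkbie, chr17:45555570-45555699, plus strand: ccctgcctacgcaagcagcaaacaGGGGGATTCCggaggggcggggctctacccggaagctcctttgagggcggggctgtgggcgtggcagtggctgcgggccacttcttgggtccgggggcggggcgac
Nfkb2, chr19:46304607-46304736, plus strand: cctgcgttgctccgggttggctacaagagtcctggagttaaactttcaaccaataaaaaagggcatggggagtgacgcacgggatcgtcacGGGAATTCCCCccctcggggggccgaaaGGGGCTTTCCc
Rel, chr11:23770970-23771099, minus strand: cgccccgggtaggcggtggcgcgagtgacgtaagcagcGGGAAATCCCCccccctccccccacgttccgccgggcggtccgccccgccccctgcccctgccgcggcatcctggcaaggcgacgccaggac
The Tnfaip3 window held GGGACACCCC from -125 and, on the opposite strand, GGGGATTTCC at -12 to -3. The Nfkbia window held GGGAATTTCC on the opposite strand at -29 to -20. The Nfkb2 window held a palindromic match, GGGAATTCCC, at -39 to -30. A match describes letters in the sequence and does not show a bound site. Tnfaip3 was the member furthest to the monocyte side, while Nfkbia, Nfkbie, Nfkb2 and Rel, which also held matches, all lay within 2-fold.

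The probes are 60 bases long. The following, in lower case and 5′ to 3′, each have at least 1 reading frame without a stop codon, and they measure a precursor subunit (Nfkb2), a transactivating subunit (Rela, the probe with 10 spots) and a pair of classical inhibitors. Their positions are those of the files, in mm8, whose exon and UTR annotation was not used here.
Nfkb2, chr19:46364967-46365106, plus strand: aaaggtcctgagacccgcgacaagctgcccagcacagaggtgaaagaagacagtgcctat
Rela, chr19:5647136-5647195, plus strand: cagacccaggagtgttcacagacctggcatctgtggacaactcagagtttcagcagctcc
Nfkbia, chr12:56408088-56408583, minus strand: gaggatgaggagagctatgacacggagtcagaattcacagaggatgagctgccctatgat
Nfkbib, chr7:28467908-28468589, minus strand: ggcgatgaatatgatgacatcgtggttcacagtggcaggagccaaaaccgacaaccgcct
The positions of the Nfkbia, Nfkbib and Nfkb2 probes span 496, 682 and 140 bases of genome, more than their own length, so their sequences are not contiguous there. For the Rel probe the files place only 15 bases. The Tnfaip3 probe lies on chromosome 10 at 18690604 to 18690663, the Nfkbiz probe on chromosome 16 at 55736929 to 55736988, the Nfkbie probe on chromosome 17 at 45026632 to 45026691 and the Relb probe on chromosome 7 at 18764895 to 18764954.

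Levels are the processed signals of the scanner software, which are corrected for spatial trends across the array. Differences are granulocyte minus monocyte on the log2 scale after each array was divided by its 75th percentile (339.4 for granulocytes and 620.9 for monocytes), which are -0.87 apart on the log2 scale. Signals on different probes are not comparable with each other, so only differences between the arrays are compared between genes. All 14 member probes were well above background on both arrays, and 0 of their spots were saturated or marked as outliers. The median difference of the 14182 genes with a signal on both arrays was 0.47, or -0.40 without scaling, so a member near 0.47 lay in the middle of all genes. The labelled cell types carried their markers: all 12 granulocyte markers were higher in granulocytes, by 1.06 to 9.65, and all 10 monocyte markers were higher in monocytes, with differences from -8.51 to -1.52. Both hold also without scaling.

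Of the 10 members, 1 was at least 4-fold higher in monocytes (10.4% of the 15609 genes detected on either array) and 0 were at least 4-fold higher in granulocytes (8.54% of genes). At 2-fold, 2 members were higher in granulocytes (29.1% of genes) and 1 in monocytes (20.9%), together 3 of 10 beside 49.9% of genes, and 7 lay within 2-fold, as did 50.8% of the genes measured on both arrays. Without scaling, 581 and 3011 of all genes reached 4-fold in granulocytes and monocytes, against 1333 and 1622 with it, while the counts of members at 4-fold stayed at 0 and 1. The median difference of the members was 0.22, beside 0.41 for all genes above background. The member past 4-fold was Tnfaip3. The other 9 lay within 1.33 of each other, from -0.19 for Rel to 1.14 for Nfkbiz. A share of 1 in 10 is no higher than the 18.9% of all genes that reached 4-fold in either direction.

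**Figure D1:**
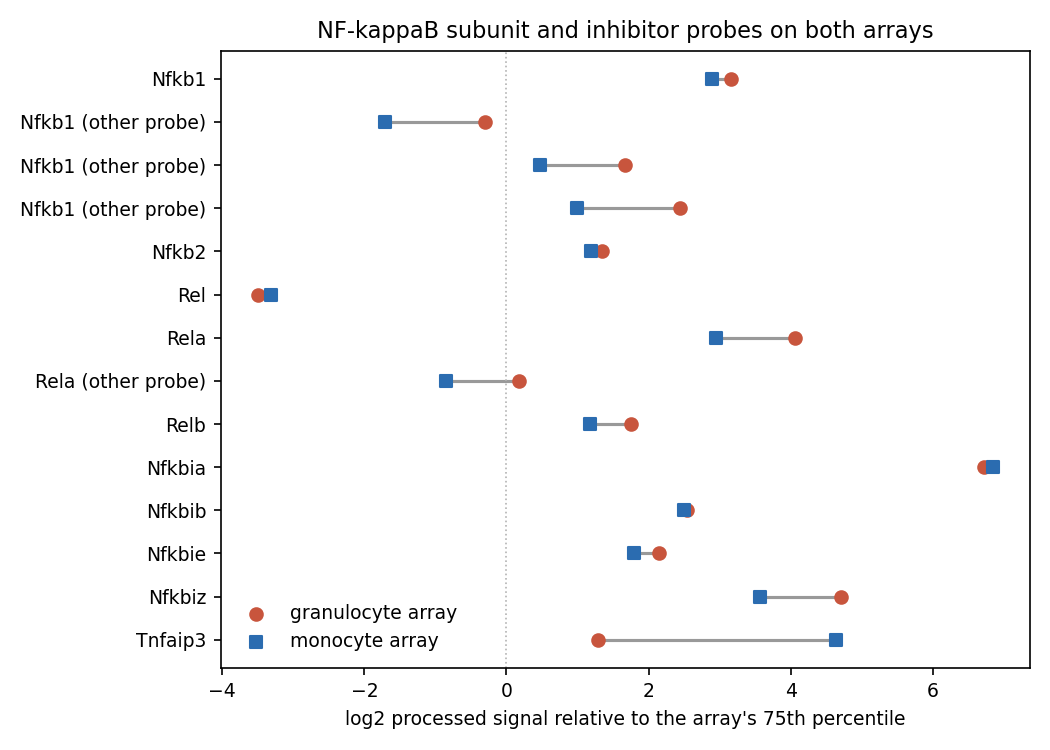
Level of each of the 14 member probes on the granulocyte array (circles) and the monocyte array (squares), as log2 processed signal relative to the array's 75th percentile, with a line joining the values of a probe. Tnfaip3 shows the longest line, from 1.29 in granulocytes to 4.64 in monocytes, while the Nfkbia, Nfkbib and Nfkb2 symbols nearly coincide.

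Tnfaip3, which encodes A20, gave a signal of 828 ± 82.9 on the granulocyte array and of 15469 ± 1547 on the monocyte array, where the error is that of the scanner software for 1 spot, which is mostly a preset proportion of the signal. The monocyte spot was the brighter by 18.7 times before scaling and by 10.2-fold after it (-3.35). The granulocyte signal was still clear of the background, with a raw signal of 37.6 times its local background, so the value is a measured difference and not a bound. Of the genes measured on both arrays, 395 had a difference as low or lower, which places Tnfaip3 at the 2.78th percentile. Its difference was 3.62 below the median of the other 9 members, a contrast within the arrays that no constant scaling can move, and quantile normalisation gave -3.71 and normexp background correction -3.64 for it. The difference itself lay between -4.22 and -3.35 over all 11 alternatives. The gene has only this 1 probe with 1 spot, so no second probe repeats the value.

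Markers of other cells also differed between the arrays beside Tnfaip3. Of the NK cell markers above background, 3 of 5 passed 4-fold towards monocytes, as did 10.4% of all genes. The summed signal of these markers had a log2 level of 0.55 on the granulocyte and 3.84 on the monocyte array. Ncr1 was below background on both. Of the dendritic cell markers 3 of 7 did (summed levels 2.59 and 4.78), while Xcr1 (1.20) and Zbtb46 (0.87) went the other way. Of the T cell markers 2 of 6 did, while Cd3d (1.76) and Cd3e (0.44) went the other way. After scaling, the summed T cell level was higher on the granulocyte array (2.4 against 2.09), where it came mostly from Cd3d (2.18). At 2-fold, 4 of the 6 T cell markers were higher in monocytes (20.9% of all genes) and 1 in granulocytes (29.1%). On the granulocyte side stood markers of erythroid cells (6.99 and 5.07), and basophils and mast cells (8.36 and 3.39, nearly all of it Hdc). So did those of megakaryocytes (2.99 and 0.54), with Clec1b (2.10) the largest part on the granulocyte array. Eosinophil markers summed to 4.43 and 3.28. There Ear1 differed by 1.72 but Epx, Prg2 and Prg3 by only 0.38 to 0.62, near the median of all genes (0.47). Before scaling, Epx (199 and 280), Prg2 (2673 and 3177) and Prg3 (123 and 148) were brighter on the monocyte array. B cell markers summed to 2.68 and 2.45. On the monocyte array the NK, dendritic and erythroid sums came mostly from Nkg7 (3.64), Bst2 (4.53) and Hba-a1 (4.99). Signals on different probes are not comparable, so a sum does not measure the share of a cell type. The part of these other cells in the Tnfaip3 result was not tested.

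**Figure D2:**
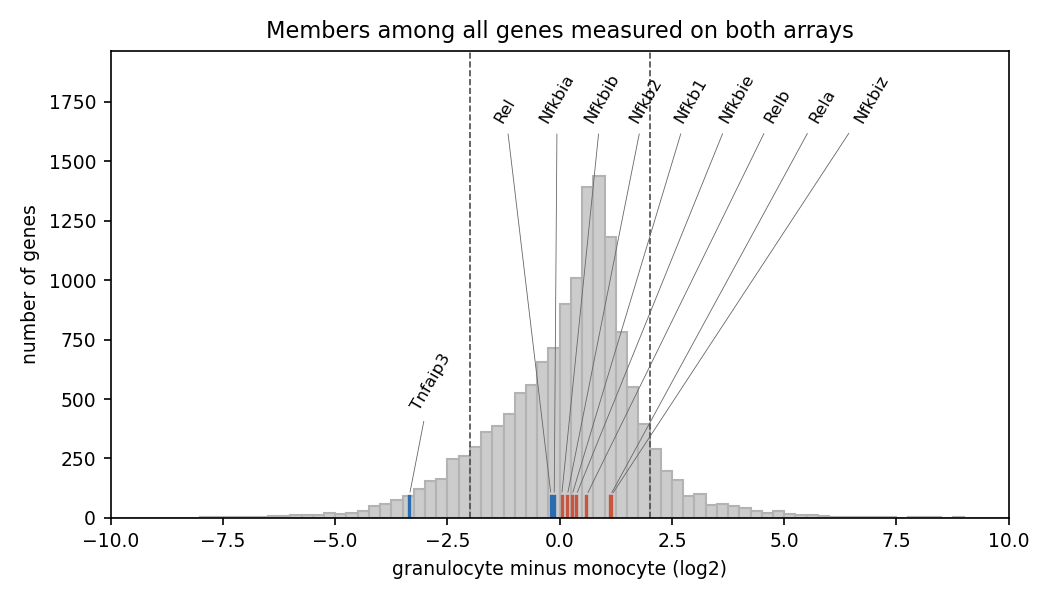
Histogram of the difference, granulocyte minus monocyte on the log2 scale, over the 14182 genes measured on both arrays, with a short bar at the value of each member and dashed lines at 4-fold. Tnfaip3 at -3.35 lies in the left tail, and the other 9 members lie between -0.19 and 1.14, in the body of the distribution.

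Among the transactivating subunits, Rela (p65) was the one furthest to the granulocyte side. Its brighter probe gave 5681 in granulocytes and 4796 in monocytes, a difference of 1.12 after scaling (2.17-fold). Its other probe, 496 bases away, was spotted 10 times: signals ranged from 358 to 409 with a median of 380 in granulocytes, and from 332 to 362 with a median of 344 in monocytes. The spot ranges of the latter probe overlapped before scaling, and its difference after scaling was 1.02 ± 0.062 (SD over 10 spots of 1 array pair), so both probes gave nearly the same value. The SD is that of spots and says nothing of the spread between mice. Without scaling the brighter probe gave 0.24, and with spike-in scaling 0.60, so Rela stayed on the granulocyte side in all 11 alternatives but was 2-fold in only some.

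Rel (c-Rel), the subunit best known from lymphocytes, was dim on both arrays, with 30.0 ± 3.6 in granulocytes and 62.5 ± 6.57 in monocytes. Its raw signals stood at 2.16 and 4.23 times the local background. The scaled difference was -0.19, and it became 0.26 with normexp background correction and -1.06 without scaling, so its direction was not fixed by these arrays. Relb, the partner of p52 in the alternative pathway, gave 1150 in granulocytes and 1399 in monocytes. This was a scaled difference of 0.59, which was 0.12 above the median of all genes and turned to -0.28 without scaling.

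The precursor genes were near each other by the probes that represent them. Nfkb2 gave 865 in granulocytes and 1412 in monocytes, a difference of 0.16, and turned negative without scaling (-0.71), with spike-in scaling (-0.35) and in the authors' value table (-0.019). For Nfkb1 the probe spotted 10 times gave signals from 2862 to 3240 (median 3004) in granulocytes and from 4360 to 5006 (median 4556) in monocytes. The monocyte spots were all brighter before scaling, and the scaled difference was 0.27 ± 0.013 (SD over 10 spots). It turned negative without scaling (-0.61), with spike-in scaling (-0.25) and with quantile normalisation (-0.12).

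The other 3 probes of Nfkb1 gave larger differences. They lie 26463, 27432 and 33483 bases upstream, in the direction of transcription, of the probe with 10 spots. Their signals were 1078 against 863, 1848 against 1239, and 276 against 190 (granulocytes against monocytes), and their scaled differences 1.19, 1.45 and 1.41. All 3 were brighter in granulocytes even before scaling, where the probe with 10 spots was brighter in monocytes. The gap between these probes and the latter was 0.93 or more, beside a median SD of 0.23 between probes of a gene, and it holds within the arrays. The 3 other probes have 1 spot each, so their own spot SD is unknown. The files tie the probe with 10 spots to the mRNA of the DNA-binding subunit and the 3 others to full-length cDNA clones, 1 of them described as unclassifiable. Averaging the 4 probes would give the gene a difference of 1.08. The value given for Nfkb1 thus depends on the probe.

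**Figure D3:**
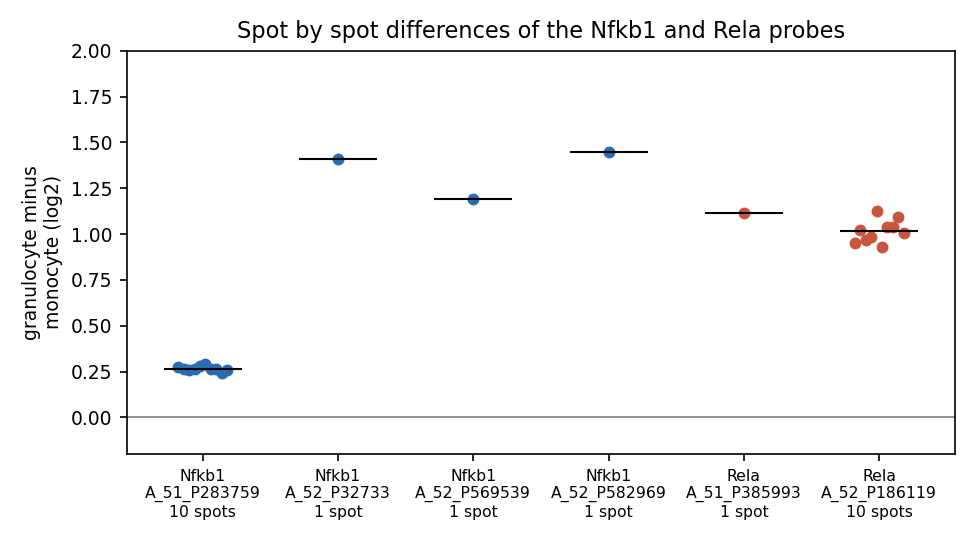
Granulocyte minus monocyte difference (log2, scaled) of each spot of the 4 Nfkb1 probes and the 2 Rela probes, with a line at the mean of a probe. The 10 spots of the leftmost Nfkb1 probe sit between 0.24 and 0.29, below the 3 other Nfkb1 probes at 1.19 to 1.45, while both Rela probes lie near 1.

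The classical inhibitors barely differed after scaling. Nfkbia, whose protein is resynthesised in each round of NF-kappaB signalling, gave 35926 ± 3593 in granulocytes and 71539 ± 7154 in monocytes, a bright spot on both arrays, with raw signals 1370 and 2880 times the local background. Its monocyte signal was 1.99 times the granulocyte one before scaling, and the scaled difference was -0.12. The sign was negative in all 11 alternatives, from -0.99 to -0.12. Nfkbib, an inhibitor with slower turnover, gave 1971 and 3504 and a difference of 0.042. This difference was negative in 6 of 11 alternatives, namely all that changed the scaling or background correction or took the authors' values. The rest could hardly move a gene with 1 probe. Nfkbie gave 1507 and 2155 and a difference of 0.36, which turned to -0.52 without scaling and -0.16 with spike-in scaling. Relative to the median of all genes the 3 inhibitors lay at -0.59, -0.43 and -0.11.

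Nfkbiz, the nuclear IkB zeta, was on the granulocyte side with 8870 ± 887 against 7376 ± 738 in monocytes, a scaled difference of 1.14 (2.2-fold) that was positive in all 11 alternatives and smallest without scaling (0.27). Set against Nfkbia on the same arrays, it was 1.26 further to the granulocyte side. The other nuclear IkB genes on the pathway lists, Bcl3 and Nfkbid, gave 1.02 each, from signals of 5558 and 5002 (Bcl3) and 2335 and 2110 (Nfkbid) in granulocytes and monocytes. Differences of this size were common, as 29.1% of the 15609 detected genes reached the 2-fold mark on the granulocyte side. The median of the 3 nuclear IkB genes was 0.98 above that of the 3 classical ones. The groups did not overlap, and the median of all genes measured on both arrays (0.47) lay between them. The contrast of 0.98, which was chosen after the values were seen, was 0.91 with quantile normalisation and 0.97 with normexp correction. Each of these 6 genes has 1 probe with 1 spot behind it.

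**Figure D4:**
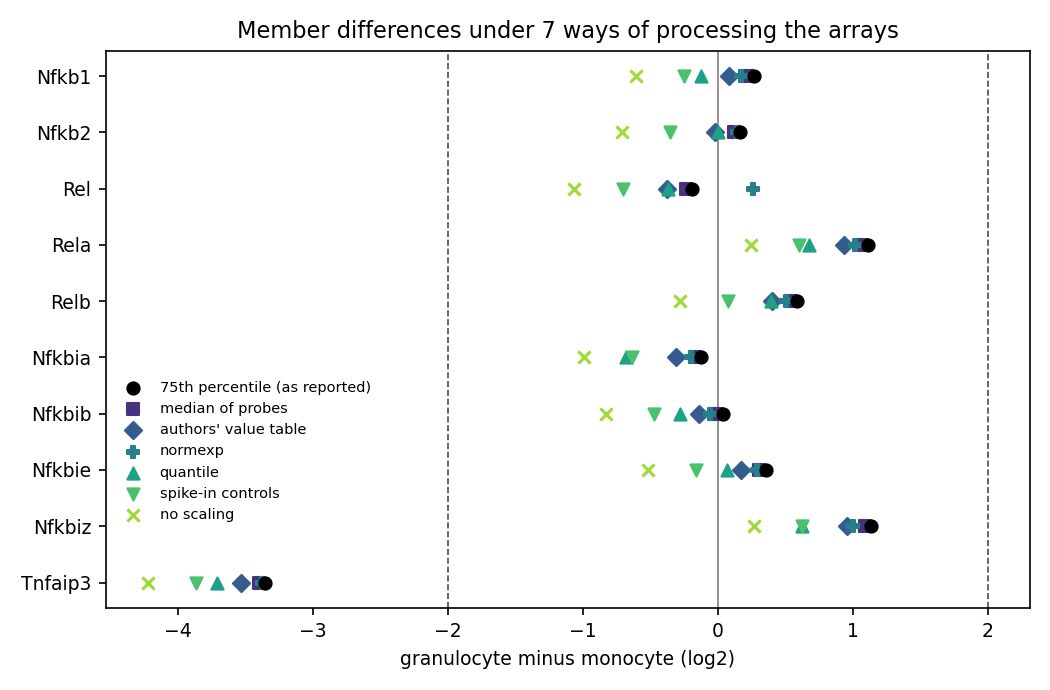
Difference of each member, granulocyte minus monocyte on the log2 scale, under 7 ways of processing the arrays, with dashed lines at 4-fold. Tnfaip3 lies past 4-fold under all 7, Rela and Nfkbiz stay above 0 under all 7, and the symbols of Nfkb1, Nfkb2, Rel, Relb, Nfkbib and Nfkbie fall on both sides of 0.

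Of 14 genes of the IkB kinase complex and its upstream kinases, all above background, 0 reached 4-fold either way, beside 18.9% of all genes. At 2-fold, 4 were on the granulocyte side and 2 on the monocyte side, together 42.9% beside 49.9% of all genes, and the median was 0.23. Ikbkb, the catalytic subunit that phosphorylates the classical inhibitors, gave 1458 in granulocytes and 5850 in monocytes (-1.13), and the related kinase gene Ikbke gave 162 and 1015 (-1.77). Chuk, the other catalytic subunit, gave 744 and 1337 (0.026), and Ikbkg, the regulatory subunit NEMO, 221 and 196 (1.05, and 1.55 and 1.56 by the other probes measured on both arrays). Map3k3 (1.76) and Tab3 (1.74), which act above the complex, stood at the granulocyte end. Chuk and Ikbkg were named after their values were seen, to complete the complex.

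Genes that edit ubiquitin on the pathway included partners of A20. Of 13 above background, 2 passed 4-fold towards granulocytes and 0 towards monocytes, which is 15.4% beside 18.9% of all genes, and the median was 0.56. Rnf11, a ring-finger protein of the A20 complex, gave 4188 in granulocytes and 594 in monocytes (3.69, 12.9-fold), the opposite direction to Tnfaip3. The deubiquitinase gene Otud7b gave 269 and 54.3 (3.18), with its other 3 probes from 1.87 to 2.35. Rnf31, the catalytic subunit of the linear ubiquitin ligase, gave 1.59, and the A20-binding Tnip2 was on the monocyte side (-1.22). Tnip1 (1.15) and Tax1bp1 (1.20), further A20 partners named after their values were seen, were on the granulocyte side, and Tnip3 was below background on both arrays.

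Receptor adaptors differed by less than 4-fold. Of 18 genes above background, 0 passed 4-fold either way, beside 18.9% of all genes. At 2-fold, 7 were on the granulocyte side and 1 on the monocyte side, together 44.4% beside 49.9% of all genes. The median was 0.53. Bcl10, an adaptor of antigen and lectin receptors, gave 15820 and 8411 (1.78). The IRAK family genes Irak4 (1.65) and Irak3 (1.64), the latter an inhibitor of Toll-like receptor signalling, followed, with the adaptor gene Traf3 at 1.35. Card9 was not analysed here. Of the 6 genes of the SCF ubiquitin ligase that marks phosphorylated IkB for degradation, 0 reached 2-fold, beside 49.9% of all genes. The substrate receptors Fbxw11 and Btrc gave 0.93 each, with Cul1 at -0.61 and Rbx1 at 0.50. Other probes gave 0.61 for Fbxw11, -0.73 and -0.30 for Cul1, and -0.22 and 0.46 for Rbx1.

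Among 13 nuclear coregulators, 1 passed 4-fold towards granulocytes and 0 towards monocytes, which is 7.69% beside 18.9% of all genes, and the median was 0.12. That gene, Pdlim2, which promotes degradation of nuclear p65, gave 12463 and 3587 (2.67, and 2.72 by its other probe). The corepressor gene Ncor1 gave 1.92, with its other probes from 0.62 to 1.97. The acetyltransferase gene Ep300 gave 1.80, and 1.36 and 2.19 by the other probes measured on both arrays. The deacetylase gene Hdac2 was at the monocyte end (34.2 and 217, -1.80); its other probe was above background on 1 array only. In the list of other Rel and IkB family genes, Nfat5, a Rel-domain factor of the osmotic response, gave 1448 and 458 (2.53, with its other probes measured on both arrays from 0.49 to 2.73). Nfatc1 gave 1.73. Nfatc2 gave 1.16 from dim signals (120 and 97.9), and 1.39 by the other probe measured on both arrays. Its probes above background on 1 array only gave bounds of -1.55 and -0.05, towards monocytes. The direction of Nfatc2 thus depends on the probe. The repressor gene Nkrf was not well above background in granulocytes (3.71 against 65.5) and at least 3.78-fold higher in monocytes. The median of these 8 was 1.05.

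Textbook kappaB target genes, most of which are also induced by other factors, were far more divided than the members. Of 33 above background, 6 passed 4-fold towards granulocytes and 9 towards monocytes, together 45.5% against 18.9% of all genes, and the list's median was 0.56. The list was chosen with earlier results of these data known, so its share is descriptive only. At the granulocyte end stood the receptor antagonist gene Il1rn (8362 and 288, 5.73) and the cytokine gene Il1b (27208 and 2073, 4.59). At the monocyte end stood the chemokine gene Ccl2 (80.9 and 48789, -8.36), the maturation marker Cd83 (33.7 and 2669, -5.44) and Cxcl1, which was not well above background in granulocytes (2.01 against 375) and at least 21.7-fold higher in monocytes. The others past 4-fold, named after their values were seen, were Ptgs2 (3.38), Lcn2 (3.86), Clec4e (3.01) and Csf1 (3.19) in granulocytes, and Ccl3 (-2.28), Icam1 (-2.93), Cd40 (-3.72), Ccl5 (-3.82), Cxcl10 (-3.88) and Il6, at least 7.4-fold, in monocytes. Tnf was within 2-fold (1502 and 4235, -0.62). The medians of the pathway lists depend on the scaling: without it, all but that of the other Rel and IkB family genes (0.18) were below 0. The part of the NF-kappaB members in the target gene differences was not tested.

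**Figure D5:**
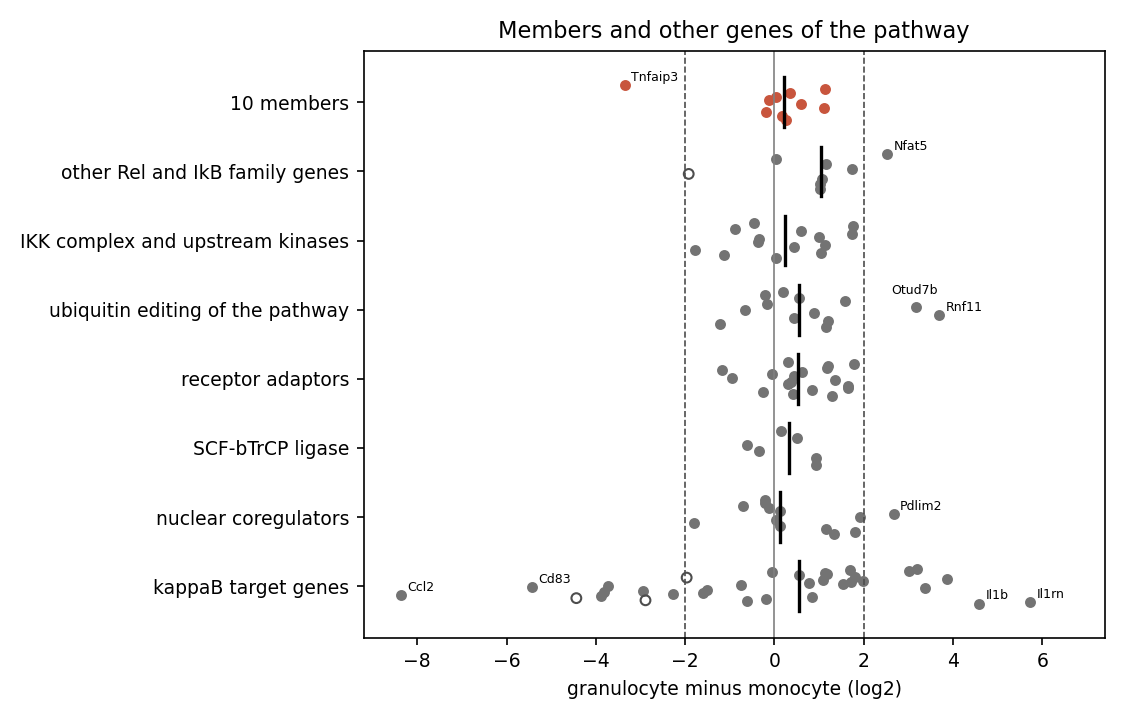
Difference of each gene above background, granulocyte minus monocyte on the log2 scale, for the 10 members and the 7 pathway lists; the black bar is a list's median, open circles are lower bounds and dashed lines mark 4-fold. The kappaB target genes spread from -8.36 to 5.73, whereas the members other than Tnfaip3 and the IkB kinase genes stay inside the 4-fold lines.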

How the data were processed

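The report rests on 2 one-colour arrays, 1 of granulocytes and 1 of monocytes. The deposited intensity values were made with Agilent Feature Extraction 10.5.1.1, per the file headers, with spatial and multiplicative detrending switched on and a further background correction switched off. They are linear and not normalised between arrays. The authors' deposited value table is on a log2 scale and is the log2 of the processed signal shifted by a constant for each array (-0.24 and -0.92, within 0.01 for 100.0% of probes with 1 spot, column medians 4.80 and 4.80). The rule behind the constants is unknown.

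Spots marked as outliers and control spots were left out, log2 signals were expressed relative to each array's 75th percentile, and spots of a probe were averaged. Probes were named through RefSeq accessions, then symbols. A gene was represented by its probe above background on most arrays, then the brightest. Where 1 array did not detect a gene well above background, its fold is a lower bound against the lowest signal above background there, or its own value if higher. Calls are at least 4-fold, with 2-fold beside it. No test was possible with 1 array per group. Repeated spots had a median SD of 0.069 and 0.065 on the log2 scale, and probes of a gene 0.23 (5398 genes). Up to 4 genes per list with the largest differences are named, and up to 3 that reached 4-fold against the list's median. Some pathway genes are not reported here and were left out of the list counts. Members and lists were chosen with earlier results of these data known. The calculation was tested on simulated data. Normexp correction used limma 3.58.1 (offset 50), and 9 spike-in controls served for spike-in scaling.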

Additional observations from a re-analysis of the deposited data

How the results depend on the processing

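With 1 array per cell type, the alternatives move values between settings and give no spread between mice. The 1 member at least 4-fold higher in monocytes and the 0 higher in granulocytes kept these counts under all 11 alternatives, and at 2-fold the granulocyte count became 2. The median of the members changed sign with quantile normalisation (-0.061), without scaling (-0.66) and with spike-in scaling (-0.30). Of the 110 member differences recomputed, 81 moved by less than 0.23, the median SD between probes of a gene. Many of them could not move. For the 8 members with 1 probe, the settings on choice of probe and on dim probes return the main value. This count, and the signs kept in all 11 alternatives, are therefore partly fixed in advance. Of 77 recomputed medians of the 7 pathway lists, 13 took the other sign, while the 19 pathway genes past 4-fold kept theirs in all 207 values. The latter was nearly fixed by the choice of genes. A 4-fold difference is 2 on the log2 scale, whereas removing the scaling moves a difference by -0.87, and lower bounds cannot change sign. Counts of all genes at 4-fold in granulocytes became 581 without scaling, 786 with spike-in scaling, 872 after normexp correction and 4536 at 2-fold, and those in monocytes 3011 without scaling, 895 after normexp correction and 3256 at 2-fold. Beyond the shifts that the scalings and sizes make by construction, the cause was not tested. No paired analysis was possible because each group has 1 array. Dim probes such as that of Rel are limited by their signal over background.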
